A study of Mus musculus with 20 samples.

Results

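CBP sites lying outside both H3K4 marks are peaks of the CBP list that shared no base with an H3K4me3 peak and none with an H3K4me1 peak. Of 6372 CBP peaks, 3426 met this rule, a share of 53.8% (95% Wilson interval 52.5 to 55.0). They are called unmarked sites below. The other 2946 peaks, called marked sites, comprised 1864 in H3K4me3 and 1082 in H3K4me1 only. The 16 peak lists of the series held 270514 peaks in all. The unmarked sites were chosen by the measured overlap of CBP peaks with the 2 marks, so their number and their distance to a mark are descriptions. Overlap with the other 13 lists was not used in choosing them.

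All lists came from double-positive T cells, CD4+ and CD8+ thymocytes, of C57BL/6 mice. Chromatin was immunoprecipitated, or taken through FAIRE, which recovers open chromatin without an antibody. The protocols of the FAIRE and RNA samples name wild-type mice aged 5 to 6 weeks, magnetic selection of thymus cells for CD8 and then for CD4, and formaldehyde crosslinking. Those of the immunoprecipitated samples name no age. No treatment or genetic change was named. Of 20 samples, 16 had a peak list, and the 4 RNA and control samples were not analysed here. Each target had 1 list and CBP, like Taf1 and TFIIB, was listed from a single replicate, so no spread between animals was available and no p-value was computed. The lists name regions without genes, so the labelled cell type was not checked against marker genes. Coordinates are in build mm9.

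CBP, the CREB-binding protein, is a coactivator and lysine acetyltransferase that transcription factors bring to promoters and enhancers, where it acetylates histones. H3K4me3 is the usual histone mark of active promoters, and H3K4me1 is found at enhancers and on the flanks of promoters. General transcription factors assemble with RNA polymerase II (Pol II) at start sites. TBP and Taf1 are subunits of TFIID, which binds core promoters. TFIIA steadies TBP on DNA, TFIIB links TBP to Pol II, TFIIF accompanies Pol II, TFIIE brings in TFIIH, and TFIIH opens the DNA and phosphorylates Pol II. ETS1 is a transcription factor of T cells.

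Unmarked sites had much less open chromatin, ETS1 and TFIIB than marked sites. They carried more Taf1 and TFIIH. Most peaks of the whole Taf1 and TFIIH lists also lay outside both marks, 11884 of 13518 and 6080 of 8618. For TFIIB it was 1817 of 10999, for ETS1 133 of 2359 and for FAIRE 3979 of 11176. How far the differences between sites follow the place of each whole list was not tested. In the following values a share is the percentage of CBP peaks that overlap the named list by at least 1 bp, and a difference is the unmarked share minus the marked share in percentage points with its 95% Newcombe interval. A difference was called when that interval excluded 0. These intervals cover counting error only. The depth behind the lists is unknown.

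FAIRE peaks, which mark open chromatin, overlapped 89 unmarked sites, or 2.60%, against 40.7% of marked sites and 20.2% of all CBP peaks. The difference was -38.1 points (-40.0 to -36.3), and the unmarked share was the lower on all 19 autosomes. TFIIB overlapped 87 unmarked sites, or 2.54%, against 44.9% of marked sites and 22.1% of all CBP peaks, a difference of -42.4 points (-44.2 to -40.5). ETS1 overlapped 39 unmarked sites, or 1.14%, against 22.5% of marked sites and 11.0% of all. Its difference was -21.3 points (-22.9 to -19.8). These 3 lists were also less frequent at unmarked sites than at sites in H3K4me1 only, where the shares were 31.4% for FAIRE, 27.4% for TFIIB and 17.1% for ETS1. At least 1 of the 3 overlapped 158 unmarked sites, or 4.61%, and 1849 marked sites, or 62.8%, a difference of -58.2 points (-60.0 to -56.2).

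TBP, the DNA-binding subunit of TFIID, overlapped 570 unmarked sites, or 16.6%, against 45.1% of marked sites and 29.8% of all CBP peaks. The difference was -28.4 points (-30.6 to -26.2). Pol II overlapped 561 unmarked sites, or 16.4%, against 43.7% of marked sites and 29.0% of all, a difference of -27.3 points (-29.4 to -25.1). TFIIE followed the same order, with 537 unmarked sites, or 15.7%, against 41.5% of marked sites and 27.6% of all, a difference of -25.8 points (-27.9 to -23.6). Against sites in H3K4me1 only, the deficits were smaller. TBP then differed by -8.04 points (-11.0 to -5.25), and Pol II by -2.76 points (-5.49 to -0.184).

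Pol II phosphorylated on serine 5 (Ser5P), the form found early in transcription, overlapped 162 unmarked sites, or 4.73%, against 27.2% of marked sites and 15.1% of all, a difference of -22.4 points (-24.2 to -20.7). The serine 2 form (Ser2P), typical of elongating polymerase, overlapped 56 unmarked sites, or 1.63%, against 1.60% of marked sites and 1.62% of all. That difference of 0.0392 points (-0.601 to 0.661) was not called, and its sign and call varied with the setting. H3K36me3, a mark of transcribed gene bodies, overlapped 183 unmarked sites, or 5.34%, against 1.12% of marked sites and 3.39% of all, a difference of 4.22 points (3.39 to 5.09). The H3K36me3 list covered 104 Mb, and the share that coverage alone would give was not computed.

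Taf1, the largest subunit of TFIID, showed the opposite order. It overlapped 701 unmarked sites, or 20.5%, against 5.77% of marked sites and 13.7% of all CBP peaks. The difference was 14.7 points (13.1 to 16.3), and the unmarked share was the higher on all 19 autosomes. Without CBP peaks of 110 to 140 bp, a setting chosen after the widths were seen, the Taf1 difference was 7.33 points. TFIIH overlapped 697 unmarked sites, or 20.3%, against 12.8% of marked sites and 16.9% of all, a difference of 7.51 points (5.70 to 9.32). The TFIIH call was lost without CBP peaks of 110 to 140 bp, at 1.12 points (-0.722 to 2.93), and when peaks within 500 bp counted as overlapping, at 1.00 points (-0.975 to 2.98). TFIIA overlapped 395 unmarked sites, or 11.5%, against 8.25% of marked sites and 10.0% of all, a difference of 3.28 points (1.81 to 4.74). The TFIIA difference turned to -0.906 points without the 110 to 140 bp peaks and to -0.854 points with the 500 bp rule, neither of them called. Against sites in H3K4me3 the TFIIA difference was 0.961 points (-0.838 to 2.68) and was not called. TFIIF overlapped 149 unmarked sites, or 4.35%, against 5.84% of marked sites and 5.04% of all, a difference of -1.49 points (-2.59 to -0.409). Within deciles of the CBP list by area that difference turned to 1.40 points (0.284 to 2.51).

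**Figure D1:**
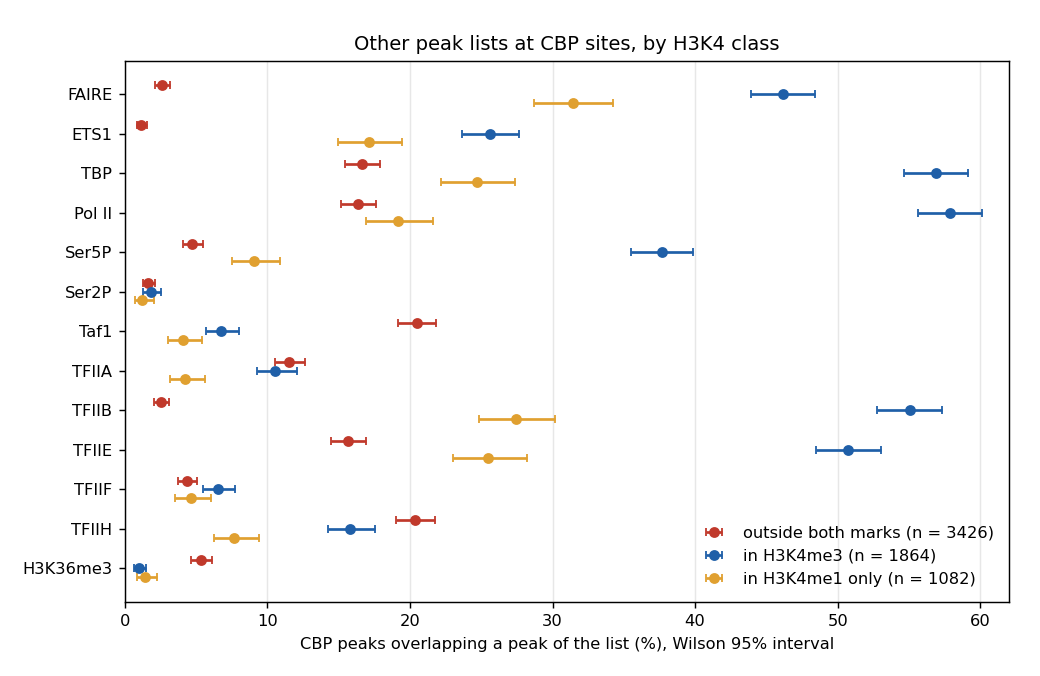
Share of CBP peaks, in percent, that overlap each of the 13 other lists, for unmarked sites, sites in H3K4me3 and sites in H3K4me1 only, with 95% Wilson intervals. Taf1 is at 20.5% in unmarked sites against 5.77% of marked sites, while FAIRE and TFIIB are at 2.60% and 2.54%.

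Unmarked sites were the lower and narrower part of the CBP list. Area, the authors' value for the signal under a peak, was used only to rank peaks within the list. The median area rank was 3826 for unmarked and 2214 for marked sites, where rank 1 is the highest of 6372. The highest unmarked site held rank 30. Median width was 60 bp, with quartiles of 40 and 100 bp, against 100 bp in marked sites, with quartiles of 60 and 140 bp. In the lowest decile of the list by area, counted as 10% of its peaks, 67.6% of peaks were unmarked, in the eighth 52.9%, in the ninth 28.6% and in the highest 8.79%, or 56 of 637 peaks. A wider peak has more room to overlap a mark, and the part of width in these shares was not tested.

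Factor overlap rose with area in unmarked sites. Taf1 went from 5.10% of unmarked sites in the lowest decile to 54.0% in the eighth, 64.8% in the ninth and 51.8% in the highest. In marked sites Taf1 stayed between 1.45% and 8.79% over all deciles. The Taf1 difference was 46.7 points (40.3 to 52.5) in the eighth decile and 56.0 points (48.3 to 63.0) in the ninth. TFIIH went from 4.18% to 57.1% of unmarked sites in the ninth decile, where its share of marked sites was 14.3%, a difference of 42.9 points (34.8 to 50.4). TFIIA reached 37.9% there against 11.0% in marked sites, a difference of 26.9 points (19.5 to 34.6). In the lowest decile neither TFIIH nor TFIIA differed beyond the interval, at -2.10 points (-6.54 to 1.37) and -1.55 points (-5.27 to 1.14). TFIIH was first called in the sixth decile, at 6.59 points (0.304 to 12.5), and TFIIA in the seventh, at 11.8 points (6.70 to 16.7). Taf1 was called in the lowest decile, at 3.66 points (0.439 to 6.33). It was not called in the second, at 0.621 points (-4.33 to 4.65), or the third, at 4.15 points (-0.164 to 7.78).

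TBP and Pol II were lower at unmarked sites over most of the list, but not at its top. In the lowest decile, TBP overlapped 2.78% of unmarked and 30.0% of marked sites. In the ninth decile, TBP was at 54.4% against 49.5%, a difference of 4.95 points (-3.63 to 13.4). Pol II was at 54.4% against 48.1% there, a difference of 6.26 points (-2.32 to 14.7). Neither was called. FAIRE and TFIIB did not close this gap. FAIRE stayed between 1.14% and 2.37% of unmarked sites through the eighth decile, and was 7.14% in the ninth and 30.4% in the highest. In the highest decile it was 68.0% in marked sites, a difference of -37.6 points (-48.7 to -24.1). TFIIB was 5.49% of unmarked sites in the ninth decile and 32.1% in the highest, against 50.8% and 63.2% of marked sites.

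**Figure D2:**
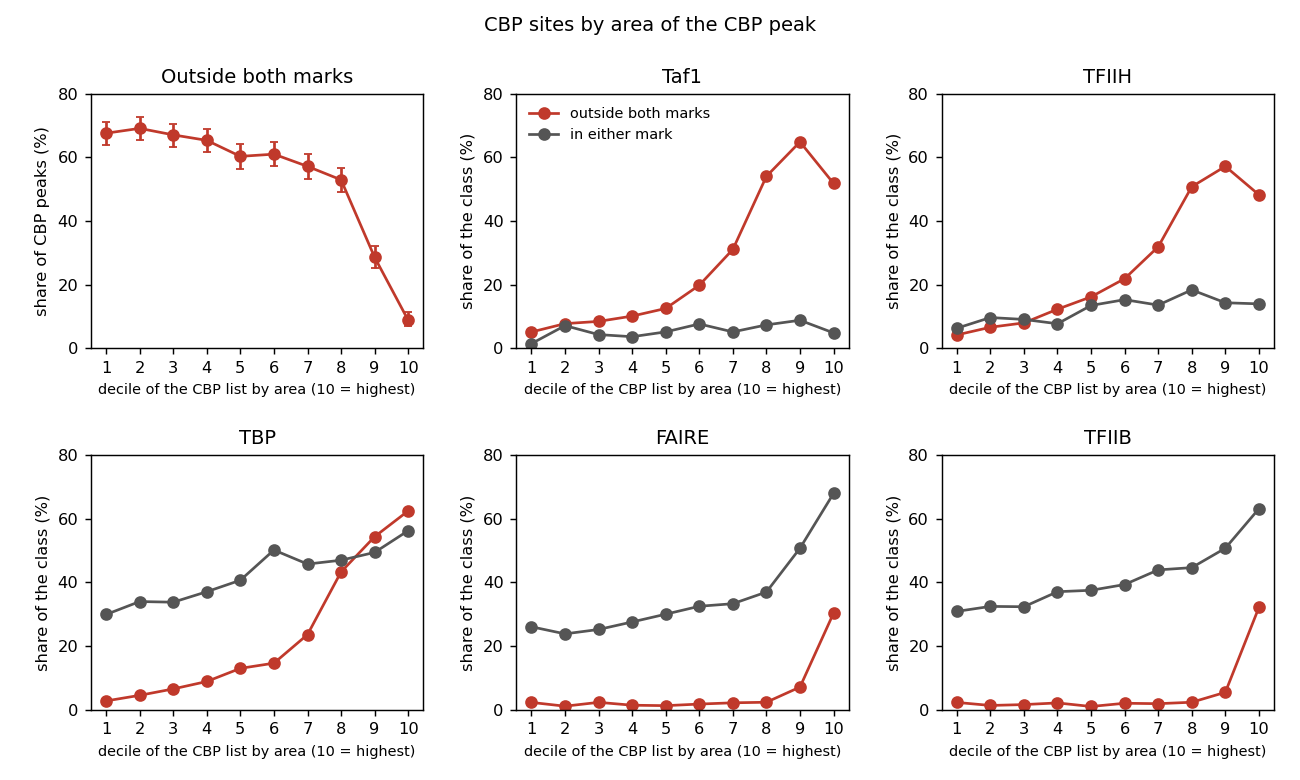
Share of CBP peaks that are unmarked (first panel, 95% Wilson intervals) and overlap with each named list (other panels), in percent of CBP peaks, over deciles of the CBP list by area from lowest to highest, for unmarked and marked sites. Taf1 and TFIIH climb past 50% only in unmarked sites, and FAIRE of unmarked sites stays under 3% through the eighth decile.

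At unmarked sites the shares of Taf1 and TFIIH were highest among CBP peaks of 110 to 140 bp. Those of TBP, FAIRE, TFIIB and ETS1 were highest at 150 bp or more. This split by width was chosen after the counts were seen. Peaks of 110 to 140 bp numbered 685 among the unmarked sites, or 20.0%, and held 369 of the 701 with Taf1 and 345 of those with TFIIH. Within these widths Taf1 overlapped 53.9% of unmarked and 9.04% of marked sites, and TFIIH 50.4% and 16.5%. TBP was close in both groups at these widths, at 44.1% and 47.7%. The same widths held 20 of the 89 unmarked sites with FAIRE, 22 of the 87 with TFIIB and 12 of the 39 with ETS1. At 30 to 50 bp lay 28, 27 and 14 sites, but this class held 40.5% of all unmarked sites. The shares there were 2.02% for FAIRE, 1.95% for TFIIB and 1.01% for ETS1, against 2.92%, 3.21% and 1.75% at 110 to 140 bp. Peaks of 30 to 50 bp numbered 1388, the most frequent class, and 7.20% of them overlapped Taf1. Unmarked sites of 120 bp numbered 226, those of 130 bp 195, those of 140 bp 62 and those of 150 bp 18. Marked sites fell off more slowly over these widths, with 222 peaks at 130 bp, 186 at 140 bp and 110 at 150 bp. Wide peaks were rare outside the marks. Only 53 unmarked sites, or 1.55%, were 150 bp or wider, against 725 marked sites, or 24.6%. Of those 53, FAIRE overlapped 34.0%, TFIIB 32.1% and ETS1 11.3%, against 65.5%, 62.6% and 37.4% of marked sites this wide. TBP overlapped 50.9% of the 53, Pol II 52.8%, Taf1 45.3% and TFIIH 39.6%. For FAIRE, TFIIB, ETS1, TBP and Pol II this was the highest of the 5 width classes, at unmarked and marked sites alike.

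**Figure D3:**
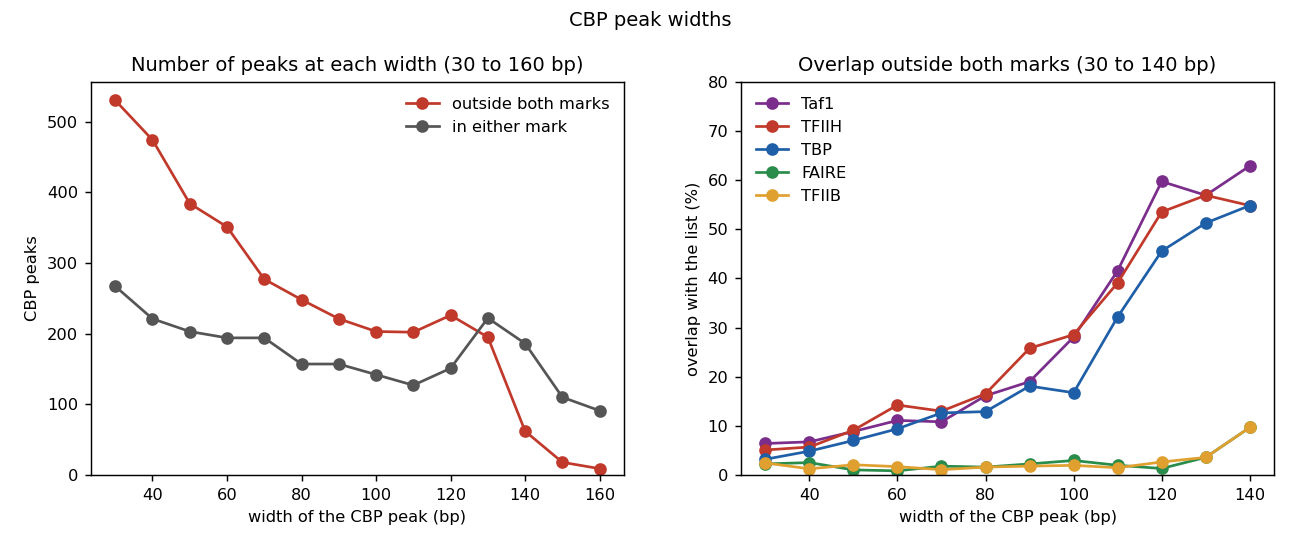
Number of CBP peaks by width in bp for unmarked and marked sites, and overlap of unmarked sites with named lists, in percent, by width. Unmarked sites drop from 195 at 130 bp to 18 at 150 bp, and at 110 to 140 bp 53.9% of them overlap Taf1.

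The partner peaks of some lists kept to narrow widths at unmarked sites. TBP peaks there had a median width of 110 bp, with 80 to 130 bp from the 10th to the 90th percentile, against 180 bp and 70 to 370 bp at marked sites. Pol II peaks had a median of 120 bp, from 80 to 150 bp, against 270 bp and 100 to 697 bp. Some other lists had a wider spread. FAIRE peaks had a median of 150 bp in both classes, from 50 to 304 bp at unmarked and 60 to 250 bp at marked sites. Ser5P peaks at unmarked sites spanned 70 to 450 bp, TFIIB peaks 40 to 334 bp and ETS1 peaks 30 to 214 bp. Their medians were still lower than at marked sites, at 140 against 230 bp, 140 against 170 bp and 70 against 160 bp. Taf1 peaks had medians of 150 and 140 bp. The names of the TFIIA, TFIIE, TFIIF and TFIIH tracks record an elongation value of 171, 176, 171 and 171, with no unit stated. Of TFIIE peaks at unmarked sites, 66.5% had a width within 20 bp of that value if it is read in bp, against 19.4% at marked sites and 29.0% of the whole TFIIE list. The difference between sites was 47.1 points (42.4 to 51.5). For TFIIH the shares were 66.4% and 31.9%, a difference of 34.5 points (28.4 to 40.2), and for TFIIA 56.5% and 24.6%, a difference of 31.9 points (24.3 to 38.9). For TFIIF, 29.3% and 22.8%, the difference of 6.44 points (-3.17 to 16.1) was not called. The shares of the whole lists were 39.2% for TFIIH, 23.0% for TFIIA and 22.1% for TFIIF. Whether the stacked Taf1, TFIIH, TBP and Pol II overlaps of unmarked sites include artefact regions that the authors' filtering left in the tracks was not tested. The input and immunoglobulin samples were not used here, so these overlaps are overlaps of listed peaks and no more.

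The rank of partner peaks within their own lists varied between lists. Taf1 peaks there had a median area percentile of 84.0, where 100 is the highest peak of the list, against 75.9 at marked sites. For TFIIH the medians were 74.2 and 67.4, and for FAIRE 77.0 and 72.7. TFIIE peaks had 63.0 against 77.2. TBP peaks had a median percentile of 45.4 against 74.8 at marked sites, Pol II peaks 40.2 against 79.7, and ETS1 peaks 25.7 against 67.6. TFIIA peaks had 79.5 against 75.1, TFIIB peaks 67.6 against 76.8 and TFIIF peaks 62.8 against 46.8. Ser5P peaks had 48.4 against 76.9 and Ser2P peaks 27.2 against 50.9. Thus the medians of Taf1, TFIIH, FAIRE, TFIIA, TFIIB and TFIIE lay above the middle of their lists in both classes. Those of TBP, Pol II, ETS1, Ser5P and Ser2P lay below it only at unmarked sites, and that of TFIIF only at marked sites. These ranks were not tested. Offsets between peak centres were taken only for overlapping peaks, so peak width bounds them and closeness was fixed in advance. The median offset between the CBP and the Pol II centre was 10 bp at unmarked and 60 bp at marked sites, and for TBP it was 10 and 35 bp. For FAIRE it was 40 and 35 bp, and for TFIIB 37.5 and 40 bp. Pol II and TBP peaks were also wider at marked sites, and the part of width in the offsets was not tested.

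Most unmarked sites overlapped none of the 12 factor and FAIRE lists, a count that leaves out H3K36me3. Such sites numbered 2286, or 66.7% (65.1 to 68.3), against 24.2% of marked sites, a difference of 42.5 points (40.2 to 44.7). Their median width was 50 bp. The share with no list went from 89.3% in the lowest decile by area to 8.93% in the highest. At the other end, 535 unmarked sites, or 15.6%, overlapped 4 or more lists, with a median width of 110 bp and a median distance of 47650 bp from the nearest mark. Exactly 1 list was overlapped by 233, or 6.80%. From there the number of unmarked sites fell with each further list, up to 9 lists. The sites with 4 or more lists are thus a pooled class and did not form a separate group.

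The combinations differed from those of marked sites. The most frequent set at unmarked sites was Taf1 alone, with 75 sites, followed by TBP, Pol II, Taf1, TFIIA, TFIIE and TFIIH together, with 50. TFIIH alone had 41 sites, and TBP, Pol II, Taf1, TFIIE and TFIIH without TFIIA 37. At marked sites FAIRE alone came first with 170, then FAIRE, TBP, Pol II, Ser5P, TFIIB and TFIIE together with 80. Taf1 and TFIIH occurred together at 476 unmarked sites, or 13.9%, and at 3.80% of marked sites, a difference of 10.1 points (8.74 to 11.4). TBP and Pol II occurred together at 379 unmarked sites, or 11.1%, and at 35.0% of marked sites, a difference of -23.9 points (-25.9 to -21.9). FAIRE and TFIIB occurred together at 34 unmarked sites, or 0.992%, and at 25.8% of marked sites. All 6 general factors, counted as Taf1, TFIIA, TFIIB, TFIIE, TFIIF and TFIIH, met at 2 unmarked and 6 marked sites.

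The partners of TBP differed between the site classes. At the 570 unmarked sites with TBP, Taf1 was present at 68.2%, against 9.79% of the marked sites with TBP, a difference of 58.5 points (54.2 to 62.4). TFIIH was present at 74.7% against 23.1%, a difference of 51.6 points (47.2 to 55.7), and TFIIA differed by 30.8 points (26.2 to 35.3). TFIIB, which contacts TBP at start sites, was present at 6.14% against 74.1%, a difference of -68.0 points (-70.8 to -64.6). FAIRE was present at 5.79% against 55.6% and Ser5P at 23.2% against 54.0%. Pol II was closer, at 66.5% and 77.6%, though its difference of -11.1 points (-15.7 to -6.73) was called. TFIIE was at 63.7% and 70.8%, a difference of -7.10 points (-11.8 to -2.51). TFIIF, whose overall share depended on the setting, also changed some of its partners. TFIIH was present at 93.3% of the unmarked and 33.7% of the marked sites with TFIIF, and FAIRE at 2.68% and 61.0%. TBP was at 83.2% and 78.5%, Pol II at 75.8% and 72.1% and TFIIE at 82.6% and 80.8%, none of them called.

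Sites with Taf1 held TFIIH at a similar share in both classes, but the reverse was not so. Of the 701 unmarked sites with Taf1, 67.9% also overlapped TFIIH, and of the 170 marked sites with Taf1, 65.9% did, a difference of 2.02 points (-5.56 to 10.2). Among unmarked sites without Taf1 the TFIIH share was 8.11%. Of sites with TFIIH, 68.3% of unmarked and 29.6% of marked ones held Taf1, a difference of 38.7 points (32.7 to 44.2). TFIIB was present at 4.42% of the unmarked and 54.7% of the marked sites with Taf1, a difference of -50.3 points (-57.7 to -42.6). The 89 unmarked sites with FAIRE had TFIIB at 38.2% (28.8 to 48.6), against 63.4% of the marked sites with FAIRE, and ETS1 at 14.6% against 36.9%. Pairs given here were picked after all pairs had been computed.

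**Figure D4:**
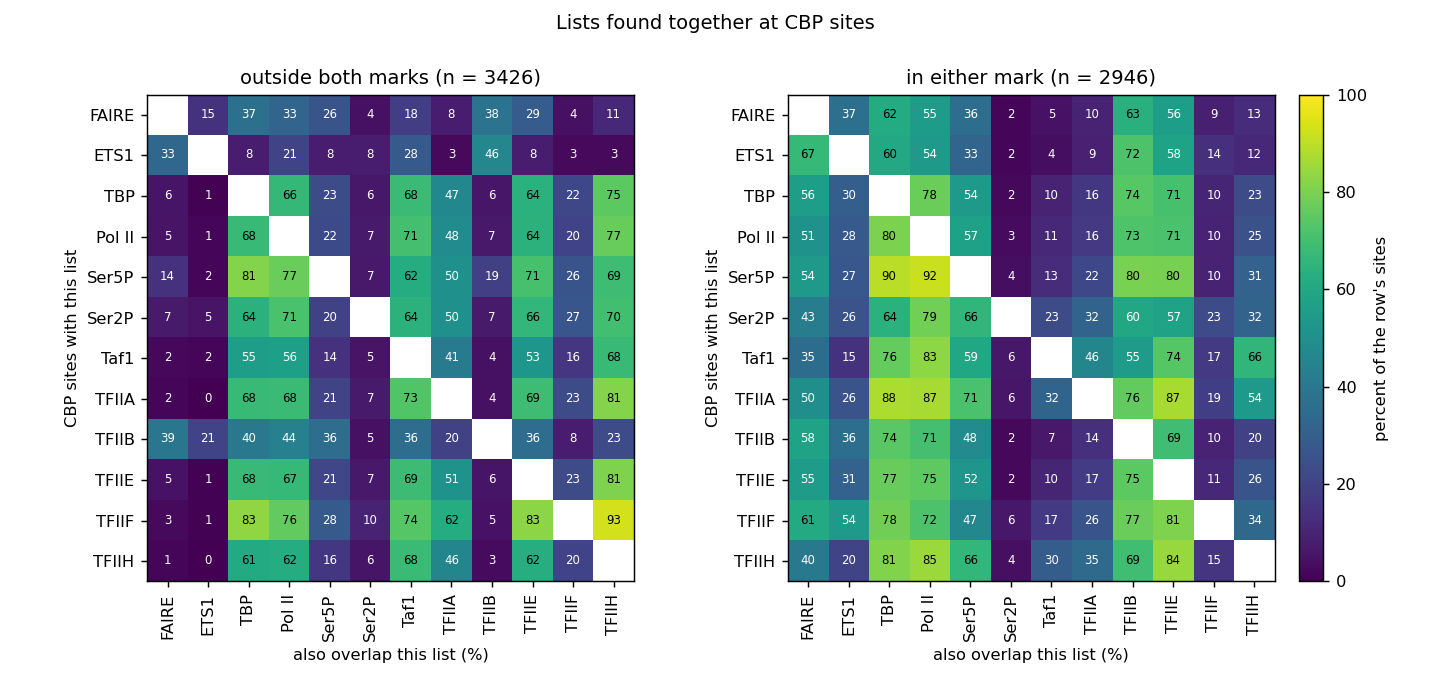
Percent of unmarked sites (left) and marked sites (right) holding the list of the row that also hold the list of the column. In unmarked sites with TBP, Taf1 is present at 68.2% and TFIIB at 6.14%, and in marked sites with TBP at 9.79% and 74.1%.

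The rule fixed that unmarked sites lie outside a mark, and most lay far from one. The median distance to the nearest edge of either mark was 51970 bp, with quartiles of 8710 and 325720 bp. It was 55610 bp to H3K4me1 and 87765 bp to H3K4me3. The nearest mark was H3K4me1 for 2760 sites, or 80.6%, H3K4me3 for 638, and both at an equal distance for 28. The H3K4me1 list has 74607 peaks and the H3K4me3 list 28013. Within 500 bp lay 235 sites, or 6.86%, and within 2000 bp 434, or 12.7%. Beyond 100000 bp lay 1405, or 41.0%. Just outside a mark, 32 unmarked sites lay 10 bp or less away, 17 of them adjacent, with a median width of 70 bp, FAIRE at 16 and TFIIB at 12. Just inside, 11 marked sites shared 10 bp or less with a mark, with a median width of 50 bp, FAIRE at 4 and TFIIB at 2.

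Open chromatin and TFIIB were most frequent at the unmarked sites nearest to a mark. FAIRE overlapped 36.1% of the 122 sites within 100 bp of a mark, 15.9% of the 113 from 110 to 500 bp and 2.01% of the 199 from 510 to 2000 bp. Farther out it did not pass 1.48%. TFIIB fell from 26.2% to 9.73% and 1.01% over the same ranges. It was at 0.422% from 2010 to 10000 bp but at 2.05% beyond 200000 bp. Of the 87 unmarked sites with TFIIB, 42 lay over 2000 bp from a mark, against 23 of the 89 with FAIRE. Sites within 2000 bp had FAIRE at 15.2% and the other 2992 sites at 0.769%, a difference of 14.4 points (11.3 to 18.1). ETS1 was less concentrated near the marks. It overlapped 8 of the 122 sites within 100 bp, or 6.56%, but 25 of its 39 sites lay over 2000 bp from a mark and 15 of them beyond 200000 bp, where its share was 1.40%. TBP was also more frequent within 2000 bp, at 25.8% against 15.3%, a difference of 10.5 points (6.38 to 15.0).

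Taf1 and TFIIH did not follow distance in this way. Taf1 overlapped 19.4% of sites within 2000 bp and 20.6% of the rest, a difference of -1.27 points (-5.02 to 2.96). TFIIH overlapped 23.5% and 19.9%, a difference of 3.62 points (-0.408 to 8.05). Over 200000 bp from any mark, 22.0% of the 1073 sites still had Taf1 and 20.2% TFIIH. In the nearest range, within 100 bp, Taf1 was at 9.02%. H3K36me3 was found at 12.2% of sites from 2010 to 10000 bp and 12.6% from 10010 to 50000 bp. It was at 1.64% within 100 bp and at none of the 1073 sites beyond 200000 bp.

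**Figure D5:**
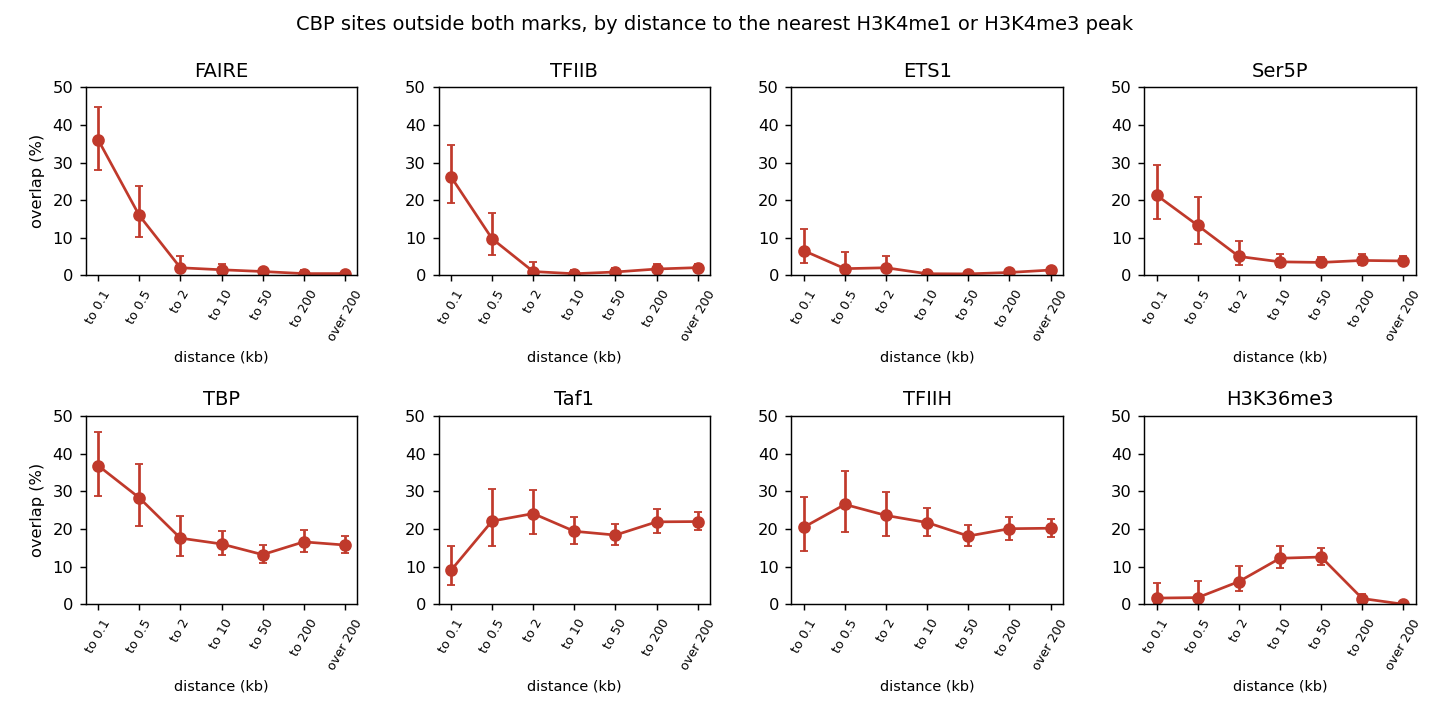
Overlap with named lists, in percent of unmarked sites with 95% Wilson intervals, by distance in kb to the nearest H3K4me1 or H3K4me3 edge. FAIRE falls from 36.1% within 100 bp to 2.01% at 510 to 2000 bp, while Taf1 is at 22.0% beyond 200000 bp.

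Single sites include examples near a mark and far from one. The unmarked site of highest area, chr8:86590621-86590850, was 230 bp wide, lay 140 bp from an H3K4me3 edge and overlapped FAIRE and TBP. The widest, chr11:87236311-87236760, spanned 450 bp, was the third widest of all CBP peaks, and lay 20 bp from H3K4me3 with TBP, Pol II, Ser5P, TFIIA, TFIIB, TFIIE, TFIIF and TFIIH. The site at chr13:110612751-110613020, the third by area, lay 20 bp from both marks and held 7 lists including FAIRE, ETS1 and TFIIB. All of the 5 unmarked sites of highest area were within 510 bp of a mark. Among the widest, chrX:51135021-51135370 was an exception, 143450 bp from H3K4me3 and 160880 bp from H3K4me1, with ETS1, Ser2P, Taf1 and TFIIB.

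Of the sites with the most lists, chr1:99476901-99477000 overlapped 11 of the 12 and lacked Ser5P. It was 100 bp wide, 90 bp from H3K4me1 and 78820 bp from H3K4me3. The site at chr15:23473691-23473820 held 9 lists at 1671550 bp from the nearest mark. Its lists were TBP, Pol II, Ser5P, Ser2P, Taf1, TFIIA, TFIIE, TFIIF and TFIIH, without FAIRE, TFIIB or ETS1, and its width was 130 bp. The highest site by area with no other list, chr11:116196681-116196840, was 160 bp wide and lay 60 bp from H3K4me3. The 3 sites farthest from a mark were on chromosome 14, the farthest at chr14:92586071-92586120 and 4745650 bp away. They were 50 or 60 bp wide and overlapped no list.

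Along the genome unmarked sites were spread more evenly than marked ones. Density was counted per megabase (Mb) of the span between the first and last peak of any list on a chromosome. Unmarked sites ranged from 1.20 to 1.64 per Mb over the 19 autosomes, a 1.37-fold range, and marked sites from 0.695 to 2.09 per Mb, a 3.00-fold range. The unmarked share of CBP peaks was lowest on chromosome 11, at 40.2% or 167 of 415, and highest on chromosome 14, at 65.5% of 267 peaks. Chromosome X had 0.340 unmarked and 0.117 marked sites per Mb, both below every autosome, and 55 of its 74 CBP peaks were unmarked. On chromosome Y 7 of 8 were. Taf1 overlapped between 15.8% and 26.3% of unmarked sites on each autosome. FAIRE overlapped 6 of the 55 unmarked sites on X, or 10.9%, against 1.20% to 4.21% on autosomes. Unmarked sites were also far from each other, with a median of 232675 bp to the nearest other unmarked site. From marked sites to the nearest other marked site the median was 35370 bp. Another unmarked site lay within 1000 bp of 94 unmarked sites, or 2.74%, and another marked site within that distance of 602 marked sites, or 20.4%.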

How the data were processed

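The lists hold peak positions on 10 bp bins with an area for each peak. The area is the authors' signal summed under it. All tracks except FAIRE were artefact-removed, scaled and background-subtracted, per the deposited track names, and 13 of the 16 lists came from merged replicates. The build was mm9, per the submitters' processing notes. Not given in the sources used here are the aligner, peak caller, threshold and depth.

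Overlap meant at least 1 bp in common, and distance was the number of bases between peaks. Shares had Wilson and differences Newcombe 95% intervals. Peaks of 1 list are not replicates of a condition. Strata were combined by Mantel-Haenszel weights. Alternatives covered the overlap rule, the thresholds, area, width, distance, autosomes and a 500 bp window. The sites and lists were chosen with earlier results of these data known. Regions named were the 5 of highest area, the 3 widest, the 5 with most lists, the 3 highest with FAIRE and with no other list, and the 3 farthest from a mark, a selection of which is printed. No mm9 sequence or gene annotation was used here. The counting code was tested on simulated data. Python 3.11.15, numpy 2.4.6, pandas 2.3.3, scipy 1.17.1 and matplotlib 3.10.9 were used.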

Additional observations from a re-analysis of the deposited data

How the results depend on the processing

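No paired analysis was possible because each target had 1 list. The differences of FAIRE, ETS1, TBP, Pol II, Ser5P, Taf1, TFIIB, TFIIE and H3K36me3 kept their direction and their call under all 11 alternatives. Taf1 ranged from 7.33 to 32.5 points, FAIRE from -49.1 to -27.3 and TFIIB from -52.0 to -33.9. The share of unmarked sites was 55.4% when 50% of the CBP peak had to be covered, 50.1% when peaks within 500 bp counted as overlapping, 41.7% in the upper 50% of CBP peaks by area and 57.5% against the upper 50% of the H3K4 lists. With the 500 bp rule Ser2P differed by -0.948, TFIIA by -0.854 and TFIIH by 1.00 points. In a 500 bp window around the CBP peak Ser2P was at -0.256 and TFIIA at 1.51. In the upper 50% of CBP peaks Ser2P was at 1.71 and TFIIF at 1.02, and with the upper 50% of the other list they were at -0.712 and -0.175. Within deciles of CBP area Ser2P was at 0.805 and TFIIF at 1.40, and within width classes at 0.781 and 1.29. TFIIF was at 0.553 with 50% of the peak covered. Ser2P was at -0.125 for sites over 2000 bp from a mark and at -0.00106 on autosomes. Without CBP peaks of 110 to 140 bp, chosen after seeing the data, Ser2P was at -0.623, TFIIA at -0.906 and TFIIH at 1.12. The cause was not tested. The depth of the lists is unknown, so a missing overlap is not absence of the factor, and 1 CBP replicate leaves the spread between animals unmeasured.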
